A study of Mus musculus with 4 samples.

Results

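The Hox genes and their TALE homeodomain partners were followed in cells of the Pdgfra lineage sorted from the forebrains of mouse pups at postnatal day 4. Members were the rows of the deposited expression table named as a gene of the Hoxa, Hoxb, Hoxc or Hoxd cluster or of the Meis, Pbx or Pknox family. The rule found 48 genes of 54348 rows, 39 Hox genes and 9 Meis, Pbx and Pknox genes, and no symbol repeated. It used gene names and no measured values.

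The fusion libraries came from PdgfraCreER;MN1:BEND2;AI14 mice and the control libraries from PdgfraCreER;AI14 mice, with 2 libraries in each group. PdgfraCreER is a tamoxifen-activated recombinase driven by Pdgfra, the gene of a growth factor receptor made by oligodendrocyte precursor cells and some fibroblasts. AI14 is a reporter that turns on the red protein tdTomato after recombination. MN1:BEND2 is the fusion gene found in astroblastoma, a brain tumour. Bend2 had 3.82 and 8.72 TPM in the fusion libraries, against 0 in each control library. Mn1 had 2.75 and 3.04 TPM in the fusion libraries, against 11.6 and 17.8 TPM in the control libraries. All mice, controls included, carried the recombinase and the reporter and received tamoxifen on postnatal days 0 and 1. Sorting kept live cells with tdTomato, and their RNA was copied to full-length cDNA and amplified, so the libraries hold every cell type in which the driver had been active.

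Hox genes encode homeodomain transcription factors that give cells their place along the body axis. They stand in clusters, are switched on in the hindbrain, spinal cord and trunk, and are normally off in the forebrain. Meis, Pbx and Pknox proteins carry a homeodomain of the TALE type, bind DNA beside Hox proteins, and also act without them in tissues that make no Hox protein.

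Values were TPM, a transcript level corrected for length and scaled to a fixed sum per library. The read depth is therefore unknown, and an exact 0 is given only as listed at 0. None of 72 ribosomal protein genes was listed at 0 in a library. The groups stood apart in quality. The mitochondrial genome supplied 48.7% and 26.2% of all TPM in fusion libraries, against 10.1% and 7.30% in the control libraries. The number of genes with at least 1 TPM was 9050 and 10017 in the fusion libraries, against 12772 and 13219 in the control libraries. Eif2s3y on the Y chromosome was listed at 0 in both fusion libraries and had 121 and 122 TPM in the control libraries, so sex and genotype cannot be told apart in any result below. The summed level of 7 oligodendrocyte precursor markers was 316 and 426 TPM in the fusion libraries, against 1058 and 1371 TPM in the control libraries, and none of the 7 was at 0 in any library. In such bulk samples, fewer cells of a type and less RNA per cell cannot be told apart.

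The promoters of 4 members are shown because they span the range of what was measured: Meis3, with the largest fall among the members, Pbx4, the member of highest level, Meis2, one of the steadier members, and Hoxa13, the Hox gene with the highest value. Each is 300 bases, from 250 before to 50 after the annotated start, 5′ to 3′ on the gene's strand, from RefSeq on GRCm38.p6, with CpG dinucleotides in capitals.
Meis3, chr7:16175145-16175444, plus strand: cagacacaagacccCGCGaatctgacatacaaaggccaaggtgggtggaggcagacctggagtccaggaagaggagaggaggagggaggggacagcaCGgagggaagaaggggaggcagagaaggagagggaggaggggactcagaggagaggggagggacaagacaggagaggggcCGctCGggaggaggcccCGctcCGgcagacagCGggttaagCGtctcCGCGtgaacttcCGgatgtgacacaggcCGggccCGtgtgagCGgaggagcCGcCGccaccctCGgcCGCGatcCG
Pbx4, chr8:69832374-69832673, plus strand: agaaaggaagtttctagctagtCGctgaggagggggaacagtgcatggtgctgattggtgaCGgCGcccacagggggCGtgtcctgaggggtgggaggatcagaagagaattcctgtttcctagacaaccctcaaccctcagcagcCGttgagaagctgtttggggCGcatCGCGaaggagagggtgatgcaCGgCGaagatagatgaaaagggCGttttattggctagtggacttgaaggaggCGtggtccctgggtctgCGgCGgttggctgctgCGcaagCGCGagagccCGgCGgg
Meis2, chr2:116064570-116064869, minus strand: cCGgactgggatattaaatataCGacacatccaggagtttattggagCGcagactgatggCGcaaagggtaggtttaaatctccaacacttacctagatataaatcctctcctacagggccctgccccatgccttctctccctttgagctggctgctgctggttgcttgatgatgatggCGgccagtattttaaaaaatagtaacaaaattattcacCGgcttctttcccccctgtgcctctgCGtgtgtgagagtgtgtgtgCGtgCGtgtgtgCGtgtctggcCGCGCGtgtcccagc
Hoxa13, chr6:52260831-52261130, minus strand: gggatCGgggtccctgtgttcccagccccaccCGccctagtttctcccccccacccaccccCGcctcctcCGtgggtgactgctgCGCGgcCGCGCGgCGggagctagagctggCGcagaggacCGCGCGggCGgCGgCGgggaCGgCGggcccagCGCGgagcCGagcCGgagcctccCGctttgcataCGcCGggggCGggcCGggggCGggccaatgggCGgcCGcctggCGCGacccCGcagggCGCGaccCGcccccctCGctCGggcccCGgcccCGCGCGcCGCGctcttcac

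The promoter of Hoxa13 held 45 CpG dinucleotides, more than 98.1% of all 32851 promoters in the table, and that of Meis2 held 13. The promoters of Meis3 and Pbx4 held 21 and 19. Of the 48 members, 27 had a promoter entry, with 29 sequences. The median was 14.5 CpG dinucleotides over 24 Hox promoters and 19 over 5 Meis and Pbx promoters, against 7 over all promoters. The Hox promoters ranged from 4 CpG dinucleotides to the 45 of Hoxa13, and the Meis and Pbx promoters from 13 to 29. The letters TGACAG, the core motif of Meis and Pknox proteins, were looked for on both strands and stood in 2 of the 24 Hox promoters and none of the 5 others, against 19.2% of all promoters. TGATTGAT, a joint Pbx and Hox motif, stood in 2 of the 24 Hox promoters, of Hoxa2 and Hoxd11, and none of the 5 others, against 0.746% of all promoters. A match describes the letters in this window and is not a measured binding site.

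Hox genes were close to absent from every library. Of 39 Hox genes, 35 were listed at 0 in all 4 libraries, or 89.7%, against 25.0% of 21803 protein-coding rows. Of the 156 Hox values, 4 were above 0, and each of these stood in a single fusion library. The summed Hox level was 1.48 and 0.0324 TPM in the fusion libraries, and all 39 genes were at 0 in both control libraries.

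Hoxa13 (ENSMUSG00000038203.18), which patterns the ends of the limbs and the hindgut, was the only Hox gene at 1 TPM or more in any library. It had 1.46 and 0 TPM in the fusion libraries and was listed at 0 in both control libraries. Its value thus rests on fusion replicate 1, where mitochondrial transcripts took most of all, and was not seen in fusion replicate 2. Hoxb6 had 0 and 0.0324 TPM, Hoxb9 had 0.00875 and 0 TPM, and Hoxc9 had 0.00832 and 0 TPM in the fusion libraries, and all were at 0 in the control libraries. These 4 genes lie in different parts of 3 clusters, with Hoxa13 at the end of its own. The Hox genes next to each were at 0 in every library. No Hoxd gene was above 0 in any library. None of the 39 reached 1 TPM in at least 2 libraries, so none was tested.

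**Figure D1:**
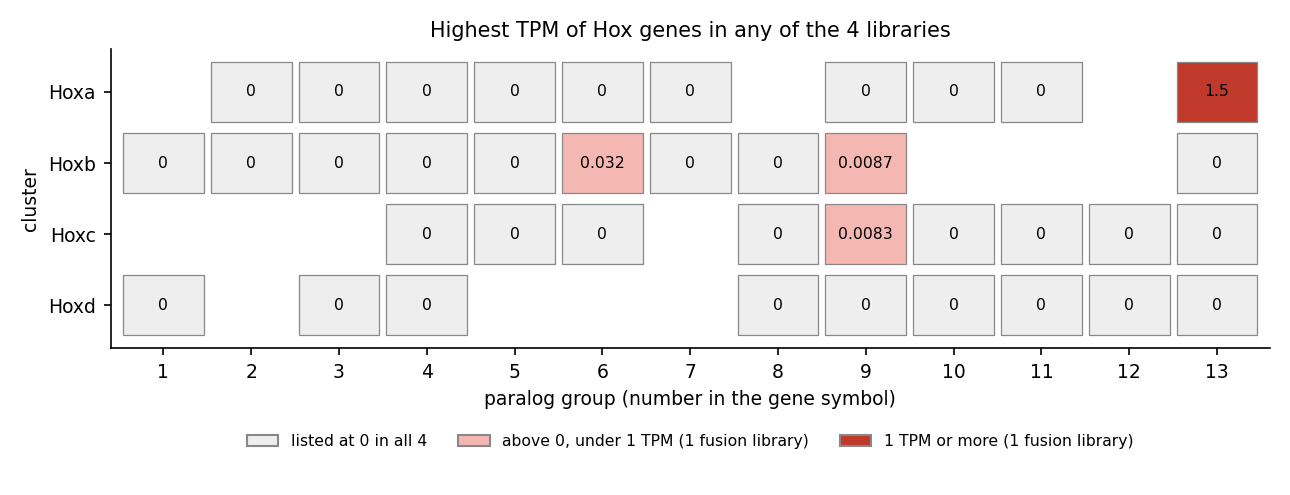
Highest TPM of Hox genes in any of the 4 libraries, by cluster (rows) and paralog group (columns, the number in the symbol), with gaps where no gene is shown. Grey cells were listed at 0 in all 4 libraries, and the only cell at 1 TPM or more is Hoxa13, at 1.46 TPM in a single fusion library.

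Most genes beside the clusters were measured. The Hoxa cluster spans 105 kb of chromosome 6 (GRCm38), Hoxb 174 kb of chromosome 11, Hoxc 116 kb of chromosome 15 and Hoxd 96.8 kb of chromosome 2. The nearest 2 protein-coding genes on each side of the 4 clusters were read as surroundings, 16 in all. Of these, 9 had 1 TPM or more in both fusion libraries and 11 in both control libraries, and 4 were listed at 0 everywhere. Mtx2, for a mitochondrial import protein and 60.7 kb from Hoxd1, had 21.9 and 62.6 TPM in the fusion libraries, against 9.60 and 8.66 TPM in the control libraries. Hibadh, a valine-degrading enzyme gene beside Hoxa, had 10.1 and 14.0 TPM in the fusion libraries, against 62.6 and 62.1 TPM in the control libraries. Atp5g2, for a subunit of ATP synthase and beside Hoxc, had 136 and 198 TPM in the fusion libraries, against 140 and 150 TPM in the control libraries. Evx1 and Evx2, the homeobox genes that adjoin the 13 ends of Hoxa and Hoxd, were at 0 in every library, as were Ttll6 and Calcoco2 beside Hoxb.

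**Figure D2:**
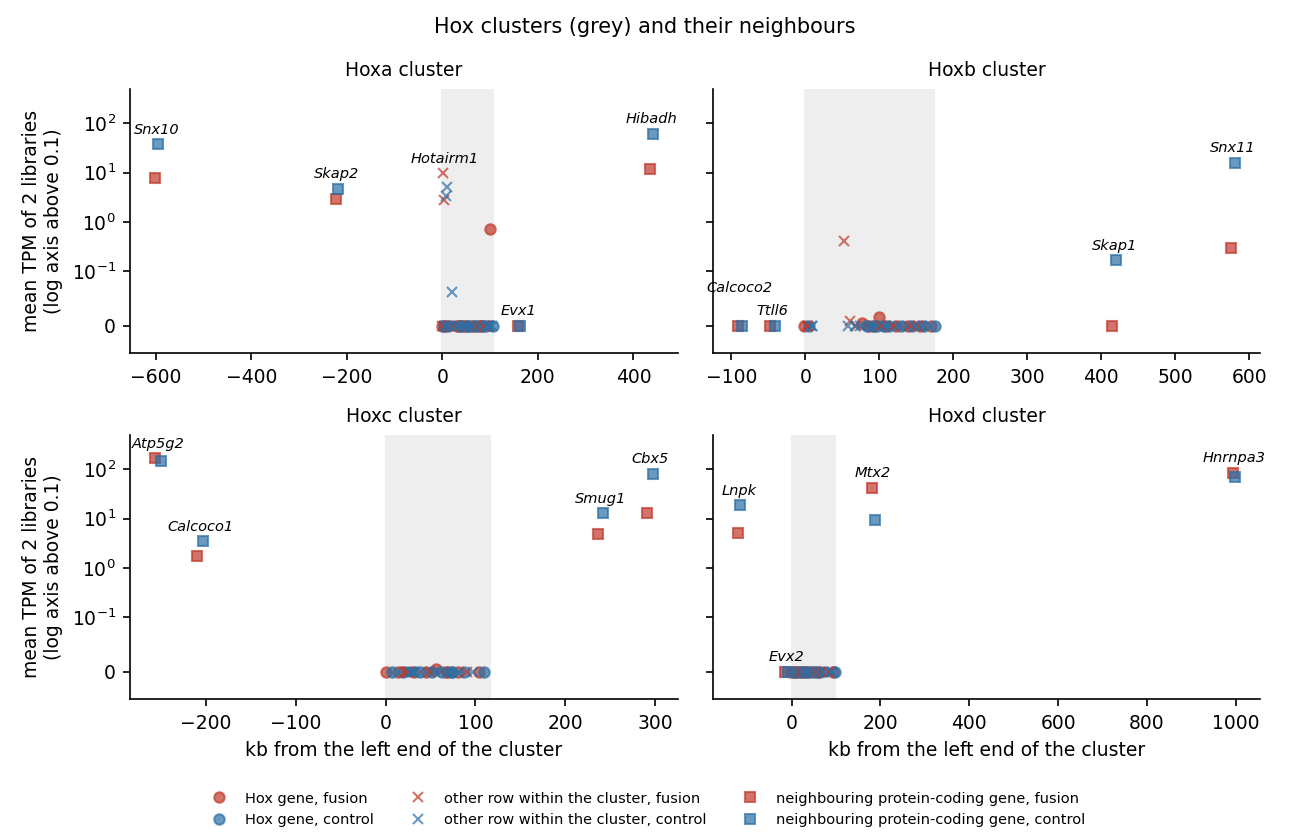
Mean TPM of the 2 libraries of each group (symmetrical log axis, linear below 0.1) against distance in kb from the left end of each Hox cluster, for Hox genes (circles), other rows within the cluster (crosses) and the neighbouring protein-coding genes (squares). Fusion points are drawn 3 kb to the left and control points 3 kb to the right of their true position. The grey clusters lie almost wholly at 0, and the highest points within them are Hotairm1 and its neighbouring row at the left end of Hoxa. Fusion points below 1 TPM stand at the right end of Hoxa, for Hoxa13, and within Hoxb, for the row Gm11539.

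A long noncoding RNA was the exception. Of 16 noncoding RNAs of the Hox clusters on the list used, 15, among them Hotair, Hottip and Haglr, were listed at 0 in every library. Hotairm1 (ENSMUSG00000087658.2, chromosome 6, 52156902 to 52162119, plus strand), known from human blood cells as an RNA induced by retinoic acid, had 9.42 and 10.1 TPM in the fusion libraries, against 3.68 and 2.87 TPM in the control libraries. Both fusion libraries lay above both control libraries, a side taken by 10.2% of tested genes. The RNA rose by a log2 change of 1.34 ± 0.42 on the log2(TPM + 1) scale (SE, adjusted p = 0.0423, limma). Of all 12871 genes tested, 4.95% were called higher, and 14.3%, 15.1% and 13.7% with median ratio scaling, quantile normalization and the GC and length correction, under each of which Hotairm1 passed. It did not pass without control replicate 1 (adjusted p = 0.195) or control replicate 2 (adjusted p = 0.258, limma). Nor did it pass with a pseudocount of 0.1 TPM (adjusted p = 0.0615), with no filter on low values (adjusted p = 0.0613) or with a replicate block (adjusted p = 0.0583, limma).

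Hotairm1 is annotated as an antisense RNA. The labels' protocols name no strand-specific kit, so reads from it and from the opposite strand cannot be told apart where exons overlap. Apart from Hotairm1, the only row within the 4 clusters that is not a Hox gene and reached 1 TPM in a library was Gm27477, a short RNA model that starts just beyond the end of Hotairm1 on the same strand. It had 5.57 and 0 TPM in the fusion libraries, against 3.52 and 6.50 TPM in the control libraries, and the groups overlapped. Gm27477 was picked out after its values were seen. Of 46 rows within the clusters that are not Hox genes, 41 were at 0 in every library. Gm11539, a pseudogene row within Hoxb, had 0.259 and 0.540 TPM in the fusion libraries and was listed at 0 in both control libraries.

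The TALE partners were measured in every library. All 36 values of the 9 Meis, Pbx and Pknox genes were above 0. Of all 48 members, 7 and 5 reached 1 TPM in the fusion libraries, against 8 and 8 in the control libraries. A level of 5 TPM was reached by 1 and 1 member in the fusion libraries, against 7 and 8 in the control libraries. The 9 genes together had 22.1 and 24.7 TPM in the fusion libraries, against 81.5 and 102 TPM in the control libraries. Over the same libraries the share of all protein-coding rows at 1 TPM or more was 36.8% and 40.7% in the fusion libraries, against 51.0% and 52.4% in the control libraries. Of 21803 protein-coding rows, 4051 and 4929 reached 5 TPM in the fusion libraries, against 7614 and 8170 in the control libraries.

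In the control libraries the order of the levels was nearly the same in both replicates. Pbx4 was highest and apart from the next gene. Meis2, Meis3, Pknox1, Pknox2 and Meis1 followed, each overlapping its neighbour in this order between the replicates, then Pbx3, which overlapped Meis1, and Pbx2 lay below all of these. In fusion replicate 1 Meis2 was highest, and in fusion replicate 2 Pbx4. The Pbx genes made up 49.6% and 58.8% of the summed level in the fusion libraries, against 55.4% and 54.5% in the control libraries. The Meis genes made up 42.5% and 18.0% in the fusion libraries, against 27.6% and 28.7% in the control libraries, so the fusion replicates lay on either side of the controls.

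**Figure D3:**
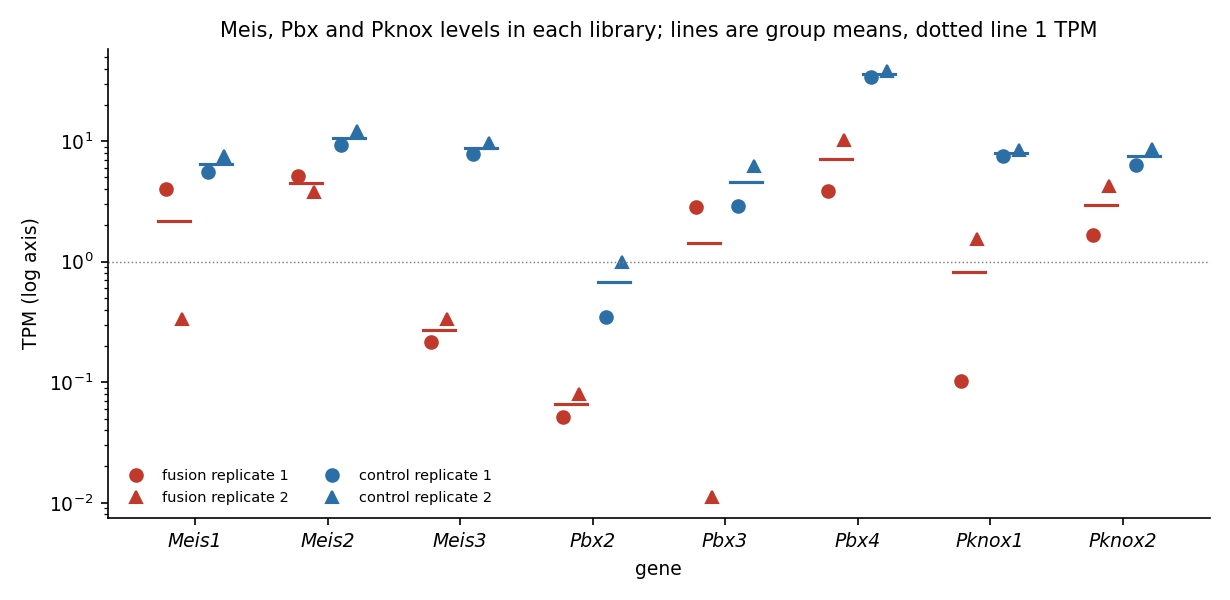
TPM (log axis) of 8 Meis, Pbx and Pknox genes in each library, with fusion libraries to the left of control libraries, circles for replicate 1, triangles for replicate 2 and lines at group means. Every fusion point lies below both control points of its gene. The fusion replicates of Meis1, Pbx3 and Pknox1 stand more than 10-fold apart.

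Of the 8 members tested, 3 fell, Meis3, Pknox1 and Pbx4, none rose and 5 did not pass (limma, adjusted p under 0.05 over 12871 genes). Among all tested genes 56.3% were called, 51.3% lower, so a share of 3 in 8 is not above the background. All 8 reached the level for testing through the control libraries alone, so these counts are a description. All 8 had both fusion libraries below both control libraries, as had 71.1% of tested genes. The median log2 change of the 8 was -1.48, against -1.41 over all tested genes, and changes relative to -1.41 are therefore given too.

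Meis3 (ENSMUSG00000041420.18, chromosome 7, 16175090 to 16186504), a Meis gene known from frog and zebrafish embryos for its part in making the hindbrain, had the largest fall. It had 0.215 and 0.332 TPM in the fusion libraries, against 7.81 and 9.69 TPM in the control libraries. It was the only member at 1 TPM or more in both control libraries and under that level in both fusion libraries. The group means were 0.273 ± 0.0831 TPM in the fusion libraries and 8.75 ± 1.33 TPM in the control libraries (SD, n = 2). Its log2 change came to -2.93 ± 0.38 (SE, adjusted p = 0.00429, limma), or -1.53 relative to all genes. It was the only member still called lower with libraries rescaled to a common median ratio (-1.91, adjusted p = 0.0192) or quantile-normalized (-1.53, adjusted p = 0.0290), where 33.0% and 30.3% of genes were called, 18.6% and 15.2% lower. It did not pass without control replicate 2 (adjusted p = 0.0531) or with values corrected for GC content and length (-0.86, adjusted p = 0.145, limma), a setting that called 30.2% of genes and 16.5% lower.

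Pknox1 (ENSMUSG00000006705.13, chromosome 17, 31564734 to 31607693), also called Prep1, keeps Pbx proteins in the nucleus. It had 0.103 and 1.54 TPM in the fusion libraries, against 7.59 and 8.49 TPM in the control libraries. The fusion replicates differed 15.0-fold, while the control replicates differed 1.12-fold. Its log2 change came to -2.43 ± 0.53 (SE, adjusted p = 0.0150, limma), or -1.02 relative to all genes. It shares 155 of 6933 exon bases with an antisense model, AC166172.4, whose level did not exceed 0.478 TPM. Its relative Pknox2, or Prep2, had 1.67 and 4.21 TPM in the fusion libraries, against 6.28 and 8.65 TPM in the control libraries. The log2 change of Pknox2 was -1.17 ± 0.52 (SE, adjusted p = 0.108, limma), or 0.24 relative to all genes, and did not pass.

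Pbx4 (ENSMUSG00000031860.17, chromosome 8, 69832491 to 69872292), described in the mouse as a gene of the testis, was the TALE partner of highest level here. It had 3.85 and 10.2 TPM in the fusion libraries, against 33.8 and 38.5 TPM in the control libraries, where it stood above 85.8% and 85.7% of protein-coding rows. The group means were 7.04 ± 4.52 TPM in the fusion libraries and 36.2 ± 3.27 TPM in the control libraries (SD, n = 2). Its log2 change came to -2.33 ± 0.52 (SE, adjusted p = 0.0161, limma), or -0.92 relative to all genes. No other annotated gene overlaps it. Neither Pbx4 nor Pknox1 passed after median ratio scaling (-0.70, adjusted p = 0.242, and -1.38, adjusted p = 0.137), without control replicate 1 (adjusted p = 0.179 and 0.155) or without control replicate 2 (adjusted p = 0.213 and 0.184, limma). With the GC and length correction their changes were -0.12 and -0.86.

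Meis2, known for its part in the developing striatum, had 5.17 and 3.77 TPM in the fusion libraries, against 9.20 and 12.1 TPM in the control libraries. Its log2 change of -1.09 ± 0.44 did not pass (SE, adjusted p = 0.0819, limma). Among protein-coding rows it lay above 81.8% and 74.0% in the fusion libraries, against 72.6% and 73.3% in the control libraries. Its direction turned upward after median ratio scaling, to 0.46, without passing.

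Meis1 and Pbx3 divided the fusion replicates. Meis1, a partner of Hoxa9 in blood stem cells and leukaemia, had 4.01 and 0.332 TPM in the fusion libraries, against 5.49 and 7.48 TPM in the control libraries. Pbx3, needed in the mouse for breathing control, had 2.82 and 0.0113 TPM in the fusion libraries, against 2.91 and 6.18 TPM in the control libraries. In fusion replicate 1 each was close to its lower control value, and in fusion replicate 2 each was far below it. Pknox1, Pknox2 and Pbx4 ran the other way and were lower in fusion replicate 1. The log2 changes were -1.52 ± 0.72 for Meis1 (SE, adjusted p = 0.124) and -1.43 ± 0.74 for Pbx3 (SE, adjusted p = 0.151, limma), and neither passed. Without fusion replicate 1 both were called lower, with adjusted p = 0.0138 for Meis1 and 0.0253 for Pbx3, and so was Meis2, with adjusted p = 0.0492 (limma). Without fusion replicate 2, Pknox2 was called lower, with adjusted p = 0.0296 (limma).

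Pbx2, a widely made Pbx gene, was below 1 TPM in every library and was not tested. It had 0.0517 and 0.0796 TPM in the fusion libraries, against 0.349 and 0.996 TPM in the control libraries, and the groups did not overlap. It shares 227 of 3640 exon bases with Gpsm3 on the same strand, and how common reads were divided is uncertain. With no filter on low values, where 19.8% of genes were called, 18.4% lower and 1.42% higher, its log2 change was -0.62 (adjusted p = 0.155, limma).

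**Figure D4:**
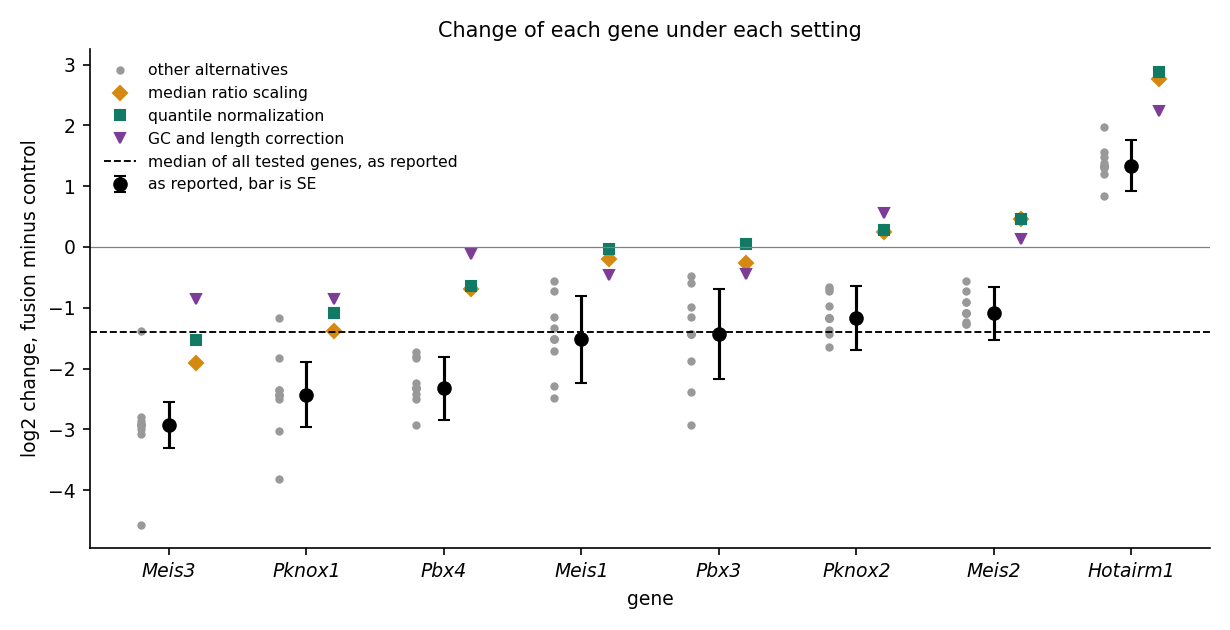
Log2 change (fusion minus control) of 7 tested members and Hotairm1 as reported (black, bar is SE) and under each alternative (grey and coloured symbols), with a dashed line at the median of all tested genes, -1.41. Meis3 lies lowest, Pknox2 and Meis2 turn upward with median ratio scaling, quantile normalization or the GC and length correction, and Hotairm1 stays above 0 throughout.

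Few of the other TALE homeodomain genes could be tested. Of 9 listed, 2 were tested, 1 rose and none fell. Tgif1, a repressor of retinoid and TGF-beta signalling, had 9.51 and 6.25 TPM in the fusion libraries, against 0.629 and 0 TPM in the control libraries, and rose by a log2 change of 2.77 ± 0.45 (SE, adjusted p = 0.00668, limma). Tgif1 reached the level for testing through the fusion libraries alone, so its call is a description. Irx2 was measured in all 4 libraries, and its change of 0.42 did not pass (adjusted p = 0.618, limma). Irx4 was listed at 0 in every library.

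Genes that switch Hox clusters on through retinoic acid and Cdx proteins moved in both directions. Of 21 listed, 10 were tested, and 3 rose, 1 fell and 6 did not pass. Their changes had a median of 0.03 on the log2 scale, which is 1.43 above that of all genes. Aldh1a3, which makes retinoic acid, had 4.53 and 4.83 TPM in the fusion libraries, against 0.528 and 1.68 TPM in the control libraries (log2 change 1.49, adjusted p = 0.0352, limma). Crabp1, which binds retinoic acid in the cell, had 6.73 and 5.37 TPM in the fusion libraries, against 1.53 and 1.20 TPM in the control libraries (log2 change 1.57, adjusted p = 0.0229, limma). Cyp26b1, which breaks retinoic acid down, had 1.17 and 1.18 TPM in the fusion libraries and was listed at 0 in both control libraries (adjusted p = 0.00765, limma). Cyp26b1 reached the level for testing through the fusion libraries alone, so its call is a description. The retinoid receptor gene Rxrg fell (log2 change -1.90, adjusted p = 0.0152, limma), and Cdx1, Cdx2 and Cdx4, direct activators of trunk Hox genes, were at 0 in every library. After median ratio scaling 4 of the 10 were higher and none was lower. Over all tested genes 4.95% were called higher and 51.3% lower, and 14.3% and 18.6% after that scaling.

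The MLL complex, which keeps Hox genes active, and Polycomb, which keeps them silent, were both measured. All 11 MLL genes were tested, and 4 fell, none rose and 7 did not pass, with a median of -0.89, or 0.51 relative to all genes. Those that fell were Rbbp5 (-2.46), Men1 (-2.16), Wdr5 (-1.63) and Mllt1 (-1.12), at adjusted p from 0.0213 to 0.0275 (limma), and after median ratio scaling none of the 11 was lower and 2 were higher. Of 14 Polycomb genes, 12 were tested, and 1 rose, 3 fell and 8 did not pass, with a median of -0.57, or 0.84 relative to all genes. Bmi1, a subunit of Polycomb repressive complex 1, rose to 32.4 and 22.2 TPM in the fusion libraries, against 10.1 and 11.1 TPM in the control libraries (log2 change 1.26, adjusted p = 0.0425, limma). Ezh1, Rnf2 and Cbx8 fell by 1.82, 1.60 and 1.56 on the log2 scale, though Rnf2 turned to 0.11 after median ratio scaling. Mllt1, Ezh1 and Cbx8 reached the level for testing through the control libraries alone, so their calls are a description. Ezh2, the main methyltransferase of Polycomb repressive complex 2, had 33.8 and 28.8 TPM in the fusion libraries, against 34.3 and 45.1 TPM in the control libraries, and did not pass (adjusted p = 0.473, limma). After median ratio scaling the list had 3 higher and 1 lower, with Ezh2 among the higher (1.40, adjusted p = 0.0484, limma). The shares over all tested genes were 51.3% lower and 4.95% higher, and 18.6% and 14.3% after that scaling.

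Some regional genes of the forebrain were measured in these libraries. Of 18 forebrain genes, 7 were tested, and 4 fell, none rose and 3 did not pass, with a median of -1.10, or 0.31 relative to all genes. Among all tested genes 51.3% were called lower, so 4 of 7 is close to the background. Gsx1, Otx2, Emx2 and Lhx2 fell, by 2.37, 1.31, 1.18 and 1.10 on the log2 scale, and none of them was called lower after median ratio scaling. Gsx1, Otx2 and Emx2 reached the level for testing through the control libraries alone, so their calls are a description. Of 11 midbrain and anterior hindbrain genes, 7, among them Pax2, En2 and Fgf8, were at 0 in every library. En1 was the only one tested and fell (log2 change -0.90, adjusted p = 0.0221, limma), with 0.0672 and 0.271 TPM in the fusion libraries, against 1.32 and 1.04 TPM in the control libraries. It too reached the level for testing through the control libraries alone. This fall lay at 0.50 relative to all genes, and En1 did not pass after median ratio scaling (-0.36, adjusted p = 0.267, limma).

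**Figure D5:**
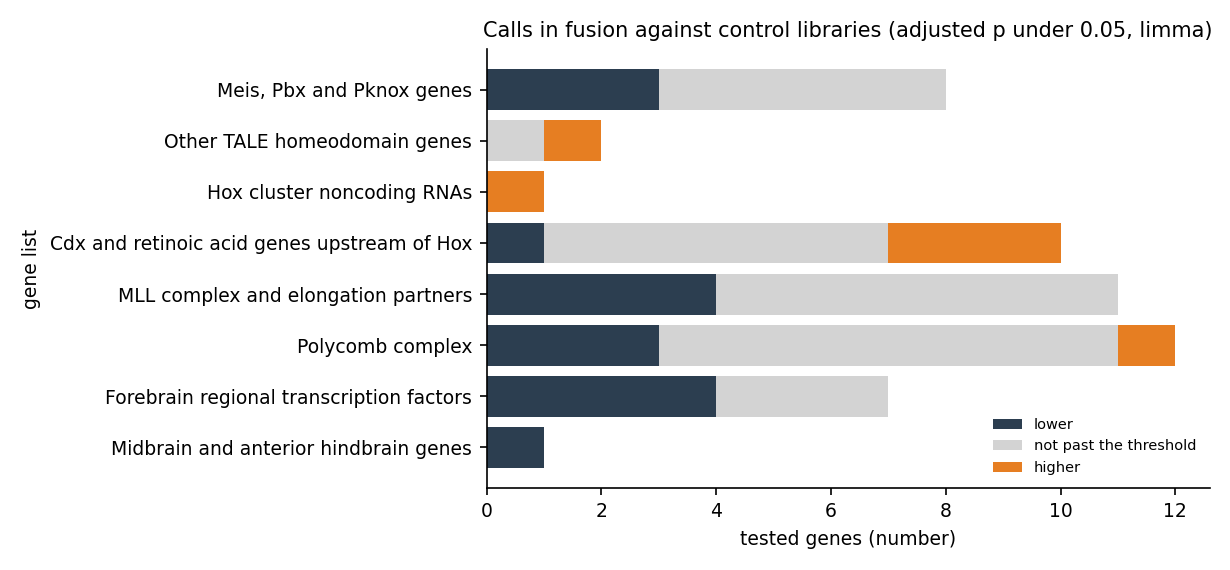
Number of tested genes of each list called lower, not past the threshold or called higher in fusion against control libraries (limma, adjusted p under 0.05). Of the Meis, Pbx and Pknox genes 3 of 8 were lower, and Hotairm1 is the single tested Hox cluster noncoding RNA, called higher.

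Markers of several cell types moved between the same libraries. Oligodendrocyte markers fell in 6 of 6 tested, with a summed level of 182 and 147 TPM in the fusion libraries, against 2041 and 2873 TPM in the control libraries. The 10 meningeal and perivascular fibroblast markers summed to 536 and 1069 TPM in the fusion libraries, against 62.7 and 172 TPM in the control libraries. Most of the fusion sums came from Mgp alone, with 364 and 717 TPM, against 0 and 1.34 TPM in the control libraries. Of the 10, 4 rose, 1 fell and 5 did not pass, although the protocol in the labels had the pial membranes removed. The 10 microglia and macrophage markers summed to 157 and 230 TPM in the fusion libraries, against 60.7 and 21.7 TPM in the control libraries, and 3 of 8 tested rose and 1 fell. Tyrobp alone gave 105 and 116 TPM of the fusion sums, against 16.6 and 7.66 TPM of the control sums. Neuron markers summed to 46.5 and 28.5 TPM in the fusion libraries, against 185 and 179 TPM in the control libraries, with 3 of 5 tested lower. Of 6 astrocyte markers tested 3 fell, of 2 mural markers 1 fell, which was Cspg4, also a precursor marker, and of 3 ependymal markers 1 rose and 1 fell. Beside these counts, 51.3% of all tested genes were called lower and 4.95% higher. After median ratio scaling 4 of 6 oligodendrocyte and 2 of 5 neuron markers were lower, while no precursor, astrocyte or mural marker was. With that scaling 7 of 10 fibroblast, 4 of 8 microglia and 2 of 6 astrocyte markers were higher, and no fibroblast or microglia marker was lower. It called 18.6% of all tested genes lower and 14.3% higher. Endothelial markers summed to at most 5.88 TPM in a library. The 8 blood markers summed to 2.76 and 12.1 TPM in the fusion libraries, against 7.08 and 15.4 TPM in the control libraries. Of these 8, 2 were tested and did not pass, and 3, among them Gata1 and Gata2, were at 0 in every library. The part of these cell types in the changes of Meis3, Pknox1, Pbx4 and Hotairm1 was not tested.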

How the data were processed

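Expression was deposited by the authors as TPM, in a single table of 54348 rows with a column per library. The submitters' processing notes list the builds GRCm38 and mm10 and the tools Trimmomatic 0.39 and Salmon 1.8.0. The step from transcripts to genes is not given here. Columns were matched to samples by genotype and replicate number. The protocol speaks of individual pups but ties no library to a pup, so a p-value reflects only how these 4 libraries vary, possibly for technical reasons.

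Tests covered the 12871 genes reaching 1 TPM in 2 or more of the 4 libraries, on log2(TPM + 1), a scale that understates changes of low genes. Genes reaching 1 TPM in a single group entered through the group where they were high, so their calls are a description. The test was limma 3.58.1 in R 4.3.3 (trend, 2-sided, Benjamini-Hochberg over all tested genes, threshold 0.05). It was run on simulated data in which 200 genes of high level changed and the rest had no shift. These libraries have a shift common to most genes, so that check does not cover the calls given here. Coordinates and exon overlaps came from GENCODE M21 (GRCm38). Alternatives changed the pseudocount, filter, scaling, variance model, block or libraries; a GC and length correction (loess, span 0.3) was chosen after seeing the data. The rule for naming took all Meis, Pbx and Pknox genes and Hox genes reaching 1 TPM, with up to 4 called genes of largest change per list. Neighbouring genes, promoters, the Hox genes below 1 TPM, Gm27477, Gm11539 and genes named as listed at 0 or as not passing were chosen after values were seen. Some genes that enter the counts are not reported here by name. Members and lists were chosen with earlier results of these data known.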

Additional observations from a re-analysis of the deposited data

How the results depend on the processing

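The fit called 7243 genes, and 4242 with median ratio scaling, 3903 with quantile normalization and 3883 with the GC and length correction. Leaving out each library gave 1039 to 8793 genes and 0 to 6 members, where a lone library is assumed to vary like the other group. The 3 members called became 1 with no filter, with a mean of at least 5 TPM (4 members tested), with median ratio scaling and with quantile normalization, and 0 with the GC and length correction (limma; 0 members at an unadjusted p under 0.05). Without control replicate 2 none passed and 1 was at an unadjusted p under 0.05 (limma); without control replicate 1, 1 passed. The GC and length correction and quantile normalization take out the shift common to a library. At 5 TPM, 1 member was counted in each fusion library in place of 7 and 5. Over all protein-coding rows the fusion counts were 4051 and 4929 in place of 8019 and 8867. Direction reversed for Meis2 (0.46, 0.47 and 0.13 with median ratio scaling, quantile normalization and the GC and length correction), Pknox2 (0.24, 0.28 and 0.56) and, with quantile normalization, Pbx3 (0.049). The cause of the other shifts was not tested. Over tested genes, the deviations of replicate 1 from its group mean had a correlation of -0.0398 between the groups. This compares a single difference per group, so it cannot decide whether libraries of the same number were paired. With a replicate block 7620 genes and 3 members were called, and Hotairm1 did not pass (adjusted p = 0.0583, limma). Read depth is unknown, so the counting error of values near 0 cannot be given.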
